A study of Homo sapiens with 9 samples.

Results

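The genes described here are 32 genes of cholesterol and fatty acid synthesis, chosen by name: 7 enzymes of the early mevalonate pathway, 11 enzymes that turn its product into squalene and sterols, 6 genes of SREBP control and sterol transfer, and 8 genes of fatty acid synthesis and desaturation. Each name stood once in the deposited table of 58735 genes, and all 32 were among the 17023 genes with enough counts to be tested. Their mRNA was sequenced from OVCAR3, an established human ovarian cancer line, with 3 libraries in each of 3 groups. Cells carried a scramble short hairpin RNA (the control, called scramble), hairpin 76 against GPX3 (sh76) or hairpin 78 against GPX3 (sh78). The product of GPX3, glutathione peroxidase 3, is a selenoprotein that cells secrete and that detoxifies peroxides, and the study asked what it does in ovarian cancer cells. All 3 groups are labelled wild type, were grown for 72 h, and shared a medium with 10% serum and bovine insulin at 0.01 mg/ml. The vector, the promoter that drives the hairpins and the number of transductions or clones are not given in the sources used here. The labels do not say that replicates were separate cultures, so each p-value measures the spread between these libraries, which may be technical.

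Cells build cholesterol from acetyl-CoA through mevalonate, farnesyl diphosphate and squalene, and build fatty acids from the same acetyl-CoA through malonyl-CoA. Both branches are driven by the sterol regulatory element binding proteins (SREBPs), transcription factors held in the endoplasmic reticulum by SCAP and the INSIG proteins while sterols are plentiful and released to the nucleus when sterols run low. SREBF2 encodes the form that mainly serves cholesterol genes, and SREBF1 the forms that mainly serve fatty acid genes. Tumour cells often draw on both branches for new membrane, and desaturases set how many double bonds the membrane lipids carry.

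Sequences are shown around the start sites of 4 genes. FADS1 and FADS2 were chosen because they lie head to head and both fell with sh76. SREBF2 was the member with a match to a sterol regulatory element core, and INSIG1 the member with a match to a palindromic E-box. The sequences are RefSeq promoters of GRCh38.p14, read 5′ to 3′ in the direction of the gene, from 250 bases before the start site to 50 after it. Capitals mark every match, on either strand, to TCACNCCAC (a sterol regulatory element core), TCACGTGA (a palindromic E-box), CCAAT (the NF-Y box, ATTGG on the other strand) and GGGCGG (the GC box, CCGCCC on the other strand).
FADS1, chr11:61816954-61817253, minus strand: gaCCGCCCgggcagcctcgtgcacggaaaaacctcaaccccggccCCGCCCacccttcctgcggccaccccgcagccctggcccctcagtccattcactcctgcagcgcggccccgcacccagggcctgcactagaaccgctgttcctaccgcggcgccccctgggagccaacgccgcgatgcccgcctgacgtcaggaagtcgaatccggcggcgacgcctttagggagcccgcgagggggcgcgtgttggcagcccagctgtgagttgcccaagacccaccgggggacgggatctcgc
FADS2, chr11:61816154-61816453, plus strand: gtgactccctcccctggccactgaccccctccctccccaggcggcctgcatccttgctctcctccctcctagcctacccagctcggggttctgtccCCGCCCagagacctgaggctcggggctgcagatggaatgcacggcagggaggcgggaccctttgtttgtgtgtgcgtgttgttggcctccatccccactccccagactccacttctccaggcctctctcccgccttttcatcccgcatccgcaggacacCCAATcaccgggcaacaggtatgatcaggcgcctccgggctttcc
SREBF2, chr22:41832855-41833154, plus strand: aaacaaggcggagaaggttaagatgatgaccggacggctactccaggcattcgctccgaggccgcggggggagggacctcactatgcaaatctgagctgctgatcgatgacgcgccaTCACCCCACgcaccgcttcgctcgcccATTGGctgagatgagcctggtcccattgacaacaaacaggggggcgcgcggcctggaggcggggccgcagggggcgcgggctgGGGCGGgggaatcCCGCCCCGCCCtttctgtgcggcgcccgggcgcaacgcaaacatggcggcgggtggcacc
INSIG1, chr7:155297628-155297927, plus strand: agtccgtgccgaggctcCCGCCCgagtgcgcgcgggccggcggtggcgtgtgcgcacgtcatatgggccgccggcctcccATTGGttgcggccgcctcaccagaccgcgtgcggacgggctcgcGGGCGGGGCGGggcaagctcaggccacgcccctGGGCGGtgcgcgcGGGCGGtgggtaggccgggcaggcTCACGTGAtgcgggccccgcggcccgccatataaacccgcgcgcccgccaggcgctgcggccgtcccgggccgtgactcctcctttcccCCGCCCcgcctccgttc
Counted from the start site as 0, the sterol element TCACCCCAC of SREBF2 lay at -133 to -125, and the E-box of INSIG1 lay at -56 to -49. The start sites of FADS1 (61817003) and FADS2 (61816404) stood 599 bases apart on opposite strands. A second RefSeq start of FADS2 stood 800 bases from that of FADS1, and its window, not shown, held no match to any of the motifs. The RefSeq table held a promoter for 28 of the 32 members, in 39 start sites, and for 35116 start sites in all. It held none for ACAT2, FDFT1, SQLE and FASN. Some members have several start sites, and where their windows overlap, as for SC5D, ACLY and INSIG2, the same bases count more than once. CCAAT was present in 25 of the 39 member promoters (64.1%) and in 34.6% of all promoters, and GGGCGG in 35 of 39 (89.7%) and 45% of all. TCACNCCAC was found in 1 of 39 (2.56%) against 1.13% of all, and TCACGTGA in 1 of 39 (2.56%) against 0.98%. Among the roles, CCAAT was most frequent in the squalene and sterol enzymes, with 9 of 11 start sites (81.8%). It was least frequent in the SREBP control genes, with 3 of 7 (42.9%). Those 11 start sites include SC5D and DHCR7 more than once and hold none of FDFT1 and SQLE, and the same CCAAT match of SC5D counts in both of its windows. TCACGTGA and TCACNCCAC share only their first letters and no match of either overlapped the other. These are letter matches within a short window and not measured binding sites. The set of all promoters was not matched to the members for expression or base composition.

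Libraries held 14652965 to 21327562 counts, and mitochondrial genes took 4.24% to 5.16% of them. The targeted gene was lowered in both hairpin groups: GPX3 stood at 133 ± 34.8 CPM (SD, n = 3) with scramble, 55.9 ± 0.852 in the sh76 libraries and 30.6 ± 4.01 in the sh78 libraries. CPM are the usual library-scaled counts, here with TMM factors. All 12 markers chosen for an ovarian serous carcinoma line, among them PAX8, WT1 and MUC16, were at 1 FPKM or more in all 9 libraries. Their summed level was 2380 to 2580 FPKM with scramble, 2110 to 2330 with sh76 and 2020 to 2130 with sh78. KRT8, KRT18 and KRT7 had the highest levels among the 12. Summed markers of other cell types were low, at 2.8 to 5.62 FPKM over the 9 libraries for 6 fibroblast genes. The sum of 6 leukocyte genes was 0.43 to 0.884 with scramble, 0.828 to 1.09 with sh76 and 1.21 to 1.29 with sh78, and MS4A1 was at 0 in all 9 libraries. That of 4 endothelial genes was 2.17 to 2.48, 2.43 to 3.18 and 3.15 to 4.29. For both of these sums the sh78 libraries lay above all scramble libraries, and their part in the results was not tested. The largest single gene in the leukocyte sum was CD14, at 0.338 to 1.09 FPKM and at most 34 counts. In the endothelial sum it was KDR, at 1.35 to 3.21 FPKM. Samples with the same replicate number deviated together, so a second fit that blocks on this number is given beside each result whose call it changes. Across all genes tested, 610 genes passed for sh76, 750 for sh78 and 629 for sh78 against sh76 in edgeR without the block, and 3467, 3388 and 3117 with it.

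In scramble cells, the fatty acid genes SCD and FASN held the highest levels per length. SCD, the stearoyl-CoA desaturase that makes monounsaturated fatty acids, stood at 346 ± 69.1 FPKM (SD, n = 3), and FASN, the fatty acid synthase, at 146 ± 14.2. HMGCS1, the cytosolic HMG-CoA synthase at the entry of the mevalonate pathway, followed at 84.5 ± 9.37. The gap between HMGCS1 and either gene above it exceeded the spread of both. SREBF1 (52.7 ± 7.82 FPKM), SREBF2 (45.7 ± 0.672) and TM7SF2 (43.8 ± 0.912), a sterol reductase, came next, and SREBF1 and SREBF2 overlapped within mean ± SD. At the lower end stood MVK, the mevalonate kinase, at 4.93 ± 0.794 FPKM, and INSIG2, a retention factor of SCAP, at 3.58 ± 0.458. CYP51A1, the lanosterol demethylase, had 2.95 ± 0.29 FPKM and HSD17B7, a sterol ketoreductase, 2.57 ± 0.33, and within mean ± SD CYP51A1 overlapped with both INSIG2 and HSD17B7. Summed over the 8 fatty acid genes the level was 488.4, 628.7 and 664.0 FPKM in scramble replicates 1 to 3. It was 486.0, 523.4 and 572.7 with sh76 and 597.4, 589.8 and 603.4 with sh78, so both hairpin groups overlapped with scramble while all sh78 sums lay above all sh76 sums. SCD and FASN made up most of these sums. ACSS2 alone of the 8 had a negative log2 fold change for sh78 against sh76. The 11 squalene and sterol enzymes summed to 236.3 to 258.3 FPKM with scramble, 221.4 to 240.1 with sh76 and 250.4 to 270.6 with sh78. For these enzymes all 3 sh78 libraries lay above all 3 sh76 libraries, and both groups overlapped with scramble.

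**Figure D1:**
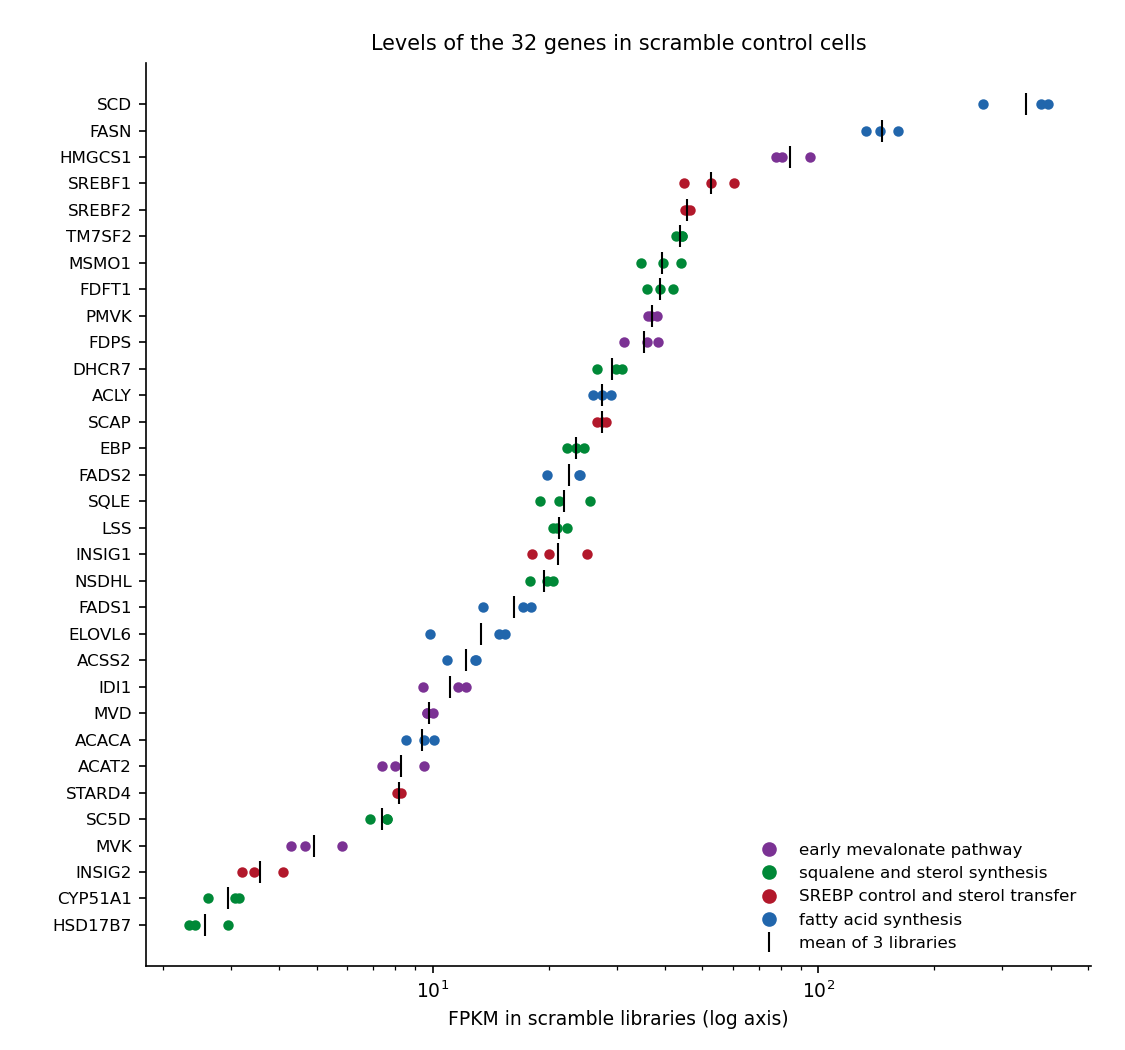
FPKM (log axis) of each of the 32 genes in the 3 scramble libraries, 1 point per library, coloured by role, with a bar at the mean. SCD and FASN stand at the top and CYP51A1 and HSD17B7 at the bottom, from 346 down to 2.57 FPKM.

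Calls in this paragraph are from the main edgeR fit, with the low-count filter and no replicate block, unless another fit is named. Few of the 32 genes were called against scramble with either hairpin, and those that were called were lower. With the block, 3 members were higher and 5 lower with sh76, and 7 were higher and 4 lower with sh78. The shares of all genes were 9.63%, 10.7%, 9.79% and 10.1%, in that order. With sh76, FADS1, FADS2 and TM7SF2 fell, which is 3 of 32, against 2.16% of all genes tested called lower. No member was called higher with sh76 by this edgeR fit or by DESeq2 (1 higher at an unadjusted p under 0.05), against 1.43% of all genes. With sh78, FADS1 fell and no member was called higher by this edgeR fit or DESeq2 (4 higher at an unadjusted p under 0.05). Of all genes, 2.56% were called lower and 1.85% higher. Without the low-count filter, edgeR called 3 members higher with sh78 (HMGCS1, FDFT1 and SQLE) and 2 lower, where 3.36% of all genes were called. FADS1 was the only member called with both hairpins and the same sign; of all genes, 0.881% were called lower with both and 0.435% higher with both. The 2 hairpin comparisons share the scramble libraries.

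FADS1 encodes the desaturase that makes arachidonic and eicosapentaenoic acid, and FADS2 encodes the desaturase that opens the path from linoleic and alpha-linolenic acid. FADS1 had 139.4, 176.6 and 184.5 CPM in scramble replicates 1 to 3, 97.9, 113.2 and 122.1 with sh76, and 106.8, 117.0 and 121.3 with sh78. Every hairpin library lay below every scramble library, and within each replicate number the hairpin library was also the lower one. The level fell by 33.4% with sh76 (log2 fold change -0.59, SE 0.106, edgeR adjusted p = 0.00919) and by 31.1% with sh78 (-0.54, SE 0.106, adjusted p = 0.0112). Between the hairpins FADS1 differed by 0.05 on the log2 scale, with a 95% interval from -0.181 to 0.278. The sh78 call rested in part on scramble replicate 2, without which the adjusted p was 0.0541.

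FADS2 had 220.5, 266.0 and 265.5 CPM with scramble, 184.0, 188.1 and 200.4 with sh76, and 212.9, 215.7 and 214.4 with sh78. Again no hairpin library reached the lowest scramble library, and the sh78 values lay above all sh76 values. FADS2 fell by 23.9% with sh76 (log2 fold change -0.39, SE 0.0726, edgeR adjusted p = 0.00863). With sh78 the log2 fold change was -0.23 and the adjusted p was 0.106, which the replicate block moved to 0.000399. Without sh76 replicate 2 the sh76 call was lost (adjusted p = 0.0514). FADS1 (ENSG00000149485, chromosome 11, 61799625 to 61829318, minus strand, GRCh38) and FADS2 (ENSG00000134824, chromosome 11, 61792980 to 61867354, plus strand) share 490 exonic bases on opposite strands. These are 4.8% of the exonic bases of FADS1 and 4.4% of those of FADS2, and since the libraries carry no strand, reads from them cannot be assigned to either gene. FADS3, the third gene of this cluster and not a member, was looked at after these values were seen. It had a log2 fold change of -0.33 with sh76 (edgeR adjusted p = 0.158, with the block 0.00105) and -0.24 with sh78 (0.336, with the block 0.0208). All sh76 libraries of FADS3 lay below scramble. With sh78 it had 23.27, 31.43 and 30.92 CPM, which overlapped with 30.92, 33.21 and 36.52 with scramble. Over the 16 alternatives its sh78 log2 fold change ran from -0.32 to -0.11.

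**Figure D2:**
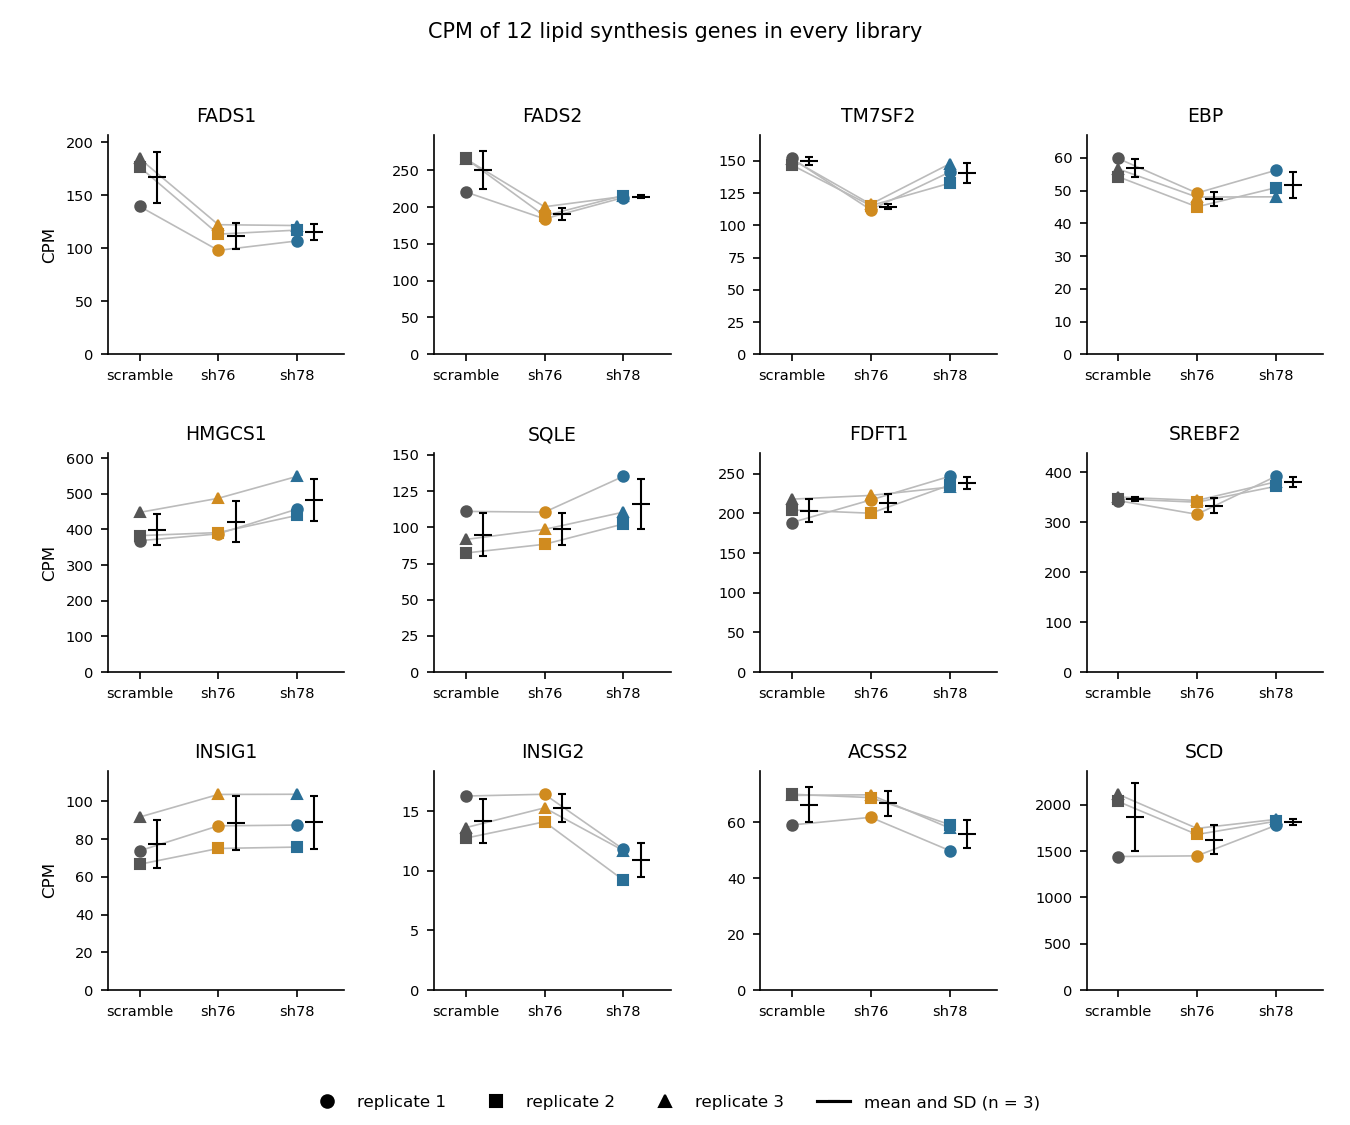
CPM of 12 of the genes in each library (y axes from 0), with marker shapes for replicates 1 to 3, grey lines joining the same replicate number, and black bars for the mean and SD (n = 3). FADS1 is lower in all 6 hairpin libraries, TM7SF2 is low in the sh76 libraries (112.1 to 116.4 CPM), and the lines of INSIG1 run in parallel.

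TM7SF2 reduces a double bond in the sterol ring, a step between lanosterol and cholesterol. It was the only squalene or sterol enzyme called in the main edgeR fit. It had 151.9, 146.8 and 151.2 CPM with scramble, 112.1, 115.3 and 116.4 with sh76, and 141.3, 132.7 and 147.7 with sh78. Values with sh76 stood apart from both other groups, while those of scramble and sh78 overlapped. TM7SF2 fell by 23.6% with sh76 (log2 fold change -0.39, SE 0.0601, edgeR adjusted p = 0.00274), and this call held in all 16 alternatives run. With sh78 its log2 fold change was -0.09 (adjusted p = 0.478). In the direct comparison TM7SF2 was 0.29 higher with sh78 than with sh76 on the log2 scale (SE 0.0601, adjusted p = 0.0143). That call was lost without sh76 replicate 1, sh76 replicate 2 or sh78 replicate 3, with an adjusted p of at most 0.0667. TM7SF2 (ENSG00000149809, chromosome 11, 65111845 to 65116384, plus strand) shares 16 exonic bases with VPS51.

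The other 10 squalene and sterol enzymes were not called in any comparison by edgeR with the low-count filter and without the block (by DESeq2 0 as well). Without the filter, FDFT1 and SQLE were called higher with sh78. EBP, a sterol isomerase, had 59.85, 54.28 and 56.67 CPM with scramble and 49.29, 45.07 and 48.05 with sh76, so these groups did not overlap. Its log2 fold change with sh76 was -0.26, with an edgeR adjusted p of 0.0933 that became 0.000827 with the block, and with sh78 it was -0.14 (0.428). FDFT1, the squalene synthase, went the other way with sh78: 188.4, 204.2 and 217.8 CPM with scramble and 246.5, 235.4 and 233.0 with sh78. There the log2 fold change was 0.23 (adjusted p = 0.0748, with the block 0.00033), and the groups did not overlap. SQLE, the squalene epoxidase and a rate-controlling step, had 111, 82.27 and 91.63 CPM with scramble, 110.5, 88.29 and 98.58 with sh76, and 135.2, 102.3 and 110.5 with sh78. These groups overlapped, since replicate 1 was high in all 3, but within every replicate number the sh78 library was above its scramble library. The log2 fold change of SQLE with sh78 was 0.29 (adjusted p = 0.277, with the block 1.02e-05).

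The remaining enzymes after squalene, LSS, CYP51A1, MSMO1, NSDHL, HSD17B7, SC5D and DHCR7, ran from -0.12 (LSS) to 0.13 (HSD17B7) on the log2 scale with sh76. They ran from -0.01 (NSDHL) to 0.21 (CYP51A1) with sh78, and none was called in either comparison, with or without the block. LSS, the lanosterol synthase, was nonetheless below scramble in all 3 sh76 libraries. CYP51A1 and HSD17B7 rest on 148 to 289 counts per library, and the SE of their log2 fold changes was 0.129 to 0.143. Annotated copies of HSD17B7 and CYP51A1 held at most 26 and 9 counts, and reads that match gene and copy alike could be split between them.

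In the early mevalonate pathway edgeR with the low-count filter and DESeq2 each called 0 of 7 enzymes in any comparison without the block. At an unadjusted p under 0.05, edgeR had 1 lower with sh76, 1 higher with sh78, and 1 in each direction for sh78 against sh76. HMGCS1 had 368.2, 382.5 and 447.6 CPM with scramble, 387.6, 391.1 and 487.2 with sh76, and 457.0, 439.3 and 548.6 with sh78. Replicate 3 was the highest in every group and the groups overlapped. The log2 fold change of HMGCS1 was 0.08 with sh76 (edgeR adjusted p = 0.784) and 0.27 with sh78 (0.233, with the block 1.88e-06). IDI1, the isomerase that makes dimethylallyl diphosphate, had 53.49, 41.48 and 50.64 CPM with scramble, 60.45, 49.77 and 56.40 with sh76, and 59.14, 49.79 and 53.91 with sh78. Each hairpin library was above the scramble library of the same number, although the groups overlapped. The log2 fold changes of IDI1 were 0.19 (SE 0.105, adjusted p = 0.37, with the block 0.0115) and 0.16 (SE 0.106, adjusted p = 0.483, with the block 0.0425). ACAT2, which condenses acetyl-CoA, was called only with sh78 and the block (0.18, adjusted p = 0.474, with the block 0.0473), and PMVK, the phosphomevalonate kinase, only with sh76 and the block (-0.19, 0.262, with the block 0.0378). MVK, MVD and FDPS, the kinase, decarboxylase and farnesyl diphosphate synthase, lay between -0.07 and 0.18 against scramble and were not called in either fit.

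Of the 6 genes of SREBP control and sterol transfer, edgeR and DESeq2 each called 0 against scramble without the block (1 higher for sh76, and 1 higher and 1 lower for sh78, at an unadjusted edgeR p under 0.05). INSIG1, a retention factor of SCAP and itself an SREBP target gene, had 73.80, 66.66 and 91.69 CPM with scramble, 87.04, 75.06 and 103.7 with sh76, and 87.47, 75.79 and 103.8 with sh78. Replicate 3 was the highest and replicate 2 the lowest in every group, so the groups overlapped, while each hairpin library lay above its scramble library. The log2 fold changes were 0.20 for sh76 (SE 0.154, edgeR adjusted p = 0.578, with the block 0.00332) and 0.20 for sh78 (SE 0.155, 0.58, with the block 0.00249). Its paralog INSIG2 had 16.26, 12.73 and 13.61 CPM with scramble, 16.41, 14.10 and 15.27 with sh76, and 11.80, 9.216 and 11.69 with sh78. All sh78 libraries lay below all others. The log2 fold change of INSIG2 with sh78 was -0.38 (adjusted p = 0.164, with the block 0.00857), from 134 to 320 counts per library.

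SREBF2 had 343.5, 347.1 and 350.7 CPM with scramble, 316.0, 340.3 and 343.8 with sh76, and 392.0, 372.0 and 381.0 with sh78. Libraries of sh78 were the 3 highest. The log2 fold change of SREBF2 was -0.06 with sh76 (edgeR adjusted p = 0.649) and 0.14 with sh78 (0.21, with the block 0.0153). SREBF1 gave -0.08 (adjusted p = 0.798) and 0.06 (0.868), and SCAP, the escort protein, -0.02 with sh76 (0.883), with an adjusted p of 0.993 with sh78. STARD4, a sterol transfer protein, was above scramble in all 3 sh76 libraries, with 54.28, 50.30 and 52.11 CPM against 46.74, 46.41 and 47.02. For sh76 the log2 fold change was 0.16 (adjusted p = 0.286, with the block 0.0492), and for sh78 it was 0.06 (0.735).

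Among the other fatty acid genes, none was called against scramble by edgeR or DESeq2 without the block; at an unadjusted edgeR p under 0.05, ACSS2 was lower with sh78. ACSS2, which makes acetyl-CoA from acetate, had 59.02, 70.00 and 69.59 CPM with scramble, 61.75, 68.81 and 69.81 with sh76, and 49.88, 59.15 and 57.94 with sh78. Libraries of sh78 overlapped with scramble by the narrow margin of replicate 1, which was the lowest in all 3 groups. Its log2 fold change with sh78 was -0.25 (edgeR adjusted p = 0.155, with the block 0.000668) and with sh76 0.01 (0.966). SCD had 1443, 2038 and 2116 CPM with scramble, 1450, 1681 and 1747 with sh76, and 1779, 1824 and 1844 with sh78. Scramble replicate 1 stood well below the other scramble libraries, and the log2 fold changes were -0.20 (adjusted p = 0.469) and -0.04 (0.922). Without scramble replicate 1 SCD was called lower with sh76 (log2 fold change -0.36, adjusted p = 0.0154). ELOVL6, the elongase of palmitate, showed the same low value in scramble replicate 1: 72.39, 113.6 and 108.5 CPM with scramble, 79.51, 102.1 and 105.9 with sh76, and 117.0, 126.3 and 115.9 with sh78. In sh76 replicate 1 was low too. Its log2 fold change with sh78 was 0.28 (adjusted p = 0.424, with the block 0.172), and 0.11 without scramble replicate 1. With sh76 it was -0.03 (0.949), and -0.21 without scramble replicate 1, and it turned sign without scramble replicate 2 (0.08). ACLY, ACACA and FASN, which make cytosolic acetyl-CoA, malonyl-CoA and palmitate, lay between -0.09 and 0.18 against scramble and were not called in either fit.

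**Figure D3:**
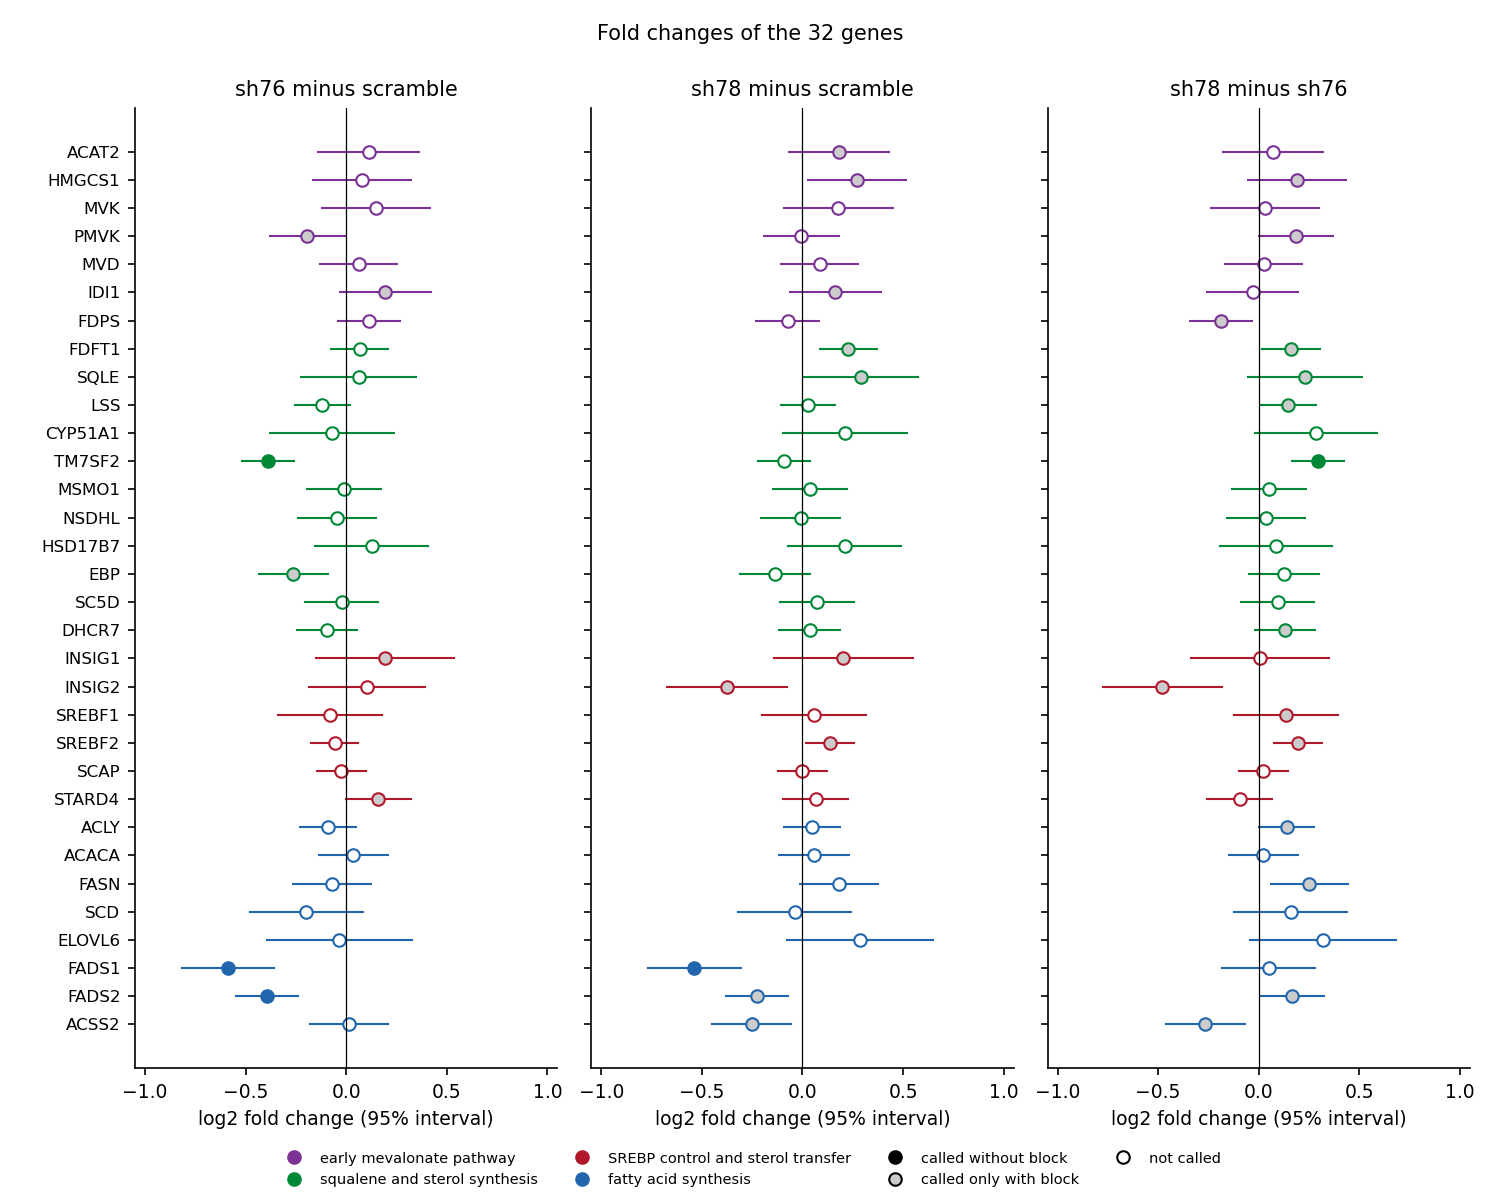
Log2 fold change with its 95% interval from edgeR for the 32 genes in 3 panels (sh76 against scramble, sh78 against scramble, sh78 against sh76), coloured by role. Filled points were called without the replicate block, grey points only with it and open points in neither; in the right panel all 11 squalene and sterol enzymes lie above 0.

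With the replicate block, which compares libraries within a replicate number, more members passed, as did more of all genes. For sh76 there were 3 members higher (IDI1, INSIG1 and STARD4) and 5 lower (PMVK, TM7SF2, EBP, FADS1 and FADS2), against 9.63% and 10.7% of all genes. For sh78 there were 7 higher (ACAT2, HMGCS1, IDI1, FDFT1, SQLE, INSIG1 and SREBF2) and 4 lower (INSIG2, FADS1, FADS2 and ACSS2), against 9.79% and 10.1%. Both hairpins had the same sign in 2 higher members (IDI1 and INSIG1) and 2 lower ones (FADS1 and FADS2), against 3.73% and 4.56% of all genes. Of these counts, the 7 members higher with sh78 were the furthest above the share of all genes. Counting libraries that did not overlap gave 1 member above and 5 below scramble for sh76, against 10.8% and 11.7% of all genes, and 3 above and 3 below for sh78, against 10.2% and 11.2%. The 1 member above scramble for sh76 was the count furthest below the share of all genes.

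Between the hairpins, few members passed the test but most fold changes had the same sign. The log2 fold change of sh78 against sh76 was positive in 27 of 32 members (84.4%), against 50.1% of all genes tested, with a median of 0.11 against 0.00 for all genes. The members were measured in the same libraries and some moved together by replicate number, so their signs are not separate observations. All 11 squalene and sterol enzymes were positive (median 0.13, from 0.04 to 0.29), as were 7 of the 8 fatty acid genes (median 0.15). In each hairpin comparison with scramble the members sat closer to 0, with 14 of 32 positive for sh76 (median -0.02) and 21 of 32 for sh78 (median 0.06), against medians of 0.01 and 0.01 for all genes. Only TM7SF2 was called higher for sh78 against sh76 by edgeR with the low-count filter and without the block, against 1.97% of all genes. No member was called lower by this fit (3 lower at an unadjusted p under 0.05, 1 by DESeq2), against 1.72%. By DESeq2, SREBF2 was also called higher and INSIG2 lower. Without the low-count filter, edgeR also called FASN higher and INSIG2 lower, where 3.12% of all genes were called.

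In this comparison the block gave 12 members higher, against 9.69% of all genes, and 3 lower, against 8.62%. The 12 were HMGCS1 and PMVK of the early pathway, FDFT1, SQLE, LSS, TM7SF2 and DHCR7 of the sterol enzymes, SREBF1 and SREBF2, and ACLY, FASN and FADS2 of the fatty acid genes. The 3 lower ones were FDPS, INSIG2 and ACSS2. FASN had 1254, 1369 and 1508 CPM with scramble, 1281, 1176 and 1474 with sh76, and 1662, 1435 and 1585 with sh78. Its 2 hairpin groups overlapped through sh76 replicate 3, and its log2 fold change of 0.25 for sh78 against sh76 had an edgeR adjusted p of 0.16 (with the block 0.00993). SREBF2 differed by 0.20 (adjusted p = 0.0719, with the block 0.000546), and INSIG2 by -0.48 (0.0745, with the block 0.000601). All 3 sh78 libraries lay above all 3 sh76 libraries for 9 members and below for 3, against 10.9% and 10.9% of all genes. The 9 were FDFT1, LSS, TM7SF2, DHCR7, SREBF2, ACLY, SCD, ELOVL6 and FADS2. GPX3 itself was lower with sh78 than with sh76 by 0.86 on the log2 scale (adjusted p = 0.0194), and whether the depth of knockdown or other properties of the hairpins set these differences cannot be told apart.

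Some of the members also followed the replicate numbers in the same order in all 3 groups, though not all with the same replicate. Replicate 2 was the lowest library in all 3 groups for 9 of 32 members (28.1%), against 7.58% of all genes tested: MVK, IDI1, SQLE, MSMO1, SC5D, DHCR7, INSIG1, INSIG2 and STARD4. All but STARD4, INSIG1 and INSIG2 of these are enzymes of the sterol pathway. Replicate 1 was the lowest in all groups for 5 members (15.6%, against 15% of all genes), ACACA, SCD, FADS1, FADS2 and ACSS2, all of which are fatty acid genes. Replicate 1 was the highest in all groups for 9 members (28.1%, against 13.6%), and replicate 3 for 6 (18.8%, against 10.7%). Within groups the SD of log2 CPM had a median of 0.117 over the members and 0.163 over all genes. It was largest for ELOVL6 (0.246) and INSIG1 (0.23) and smallest for SCAP (0.0424) and SREBF2 (0.0449).

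**Figure D4:**
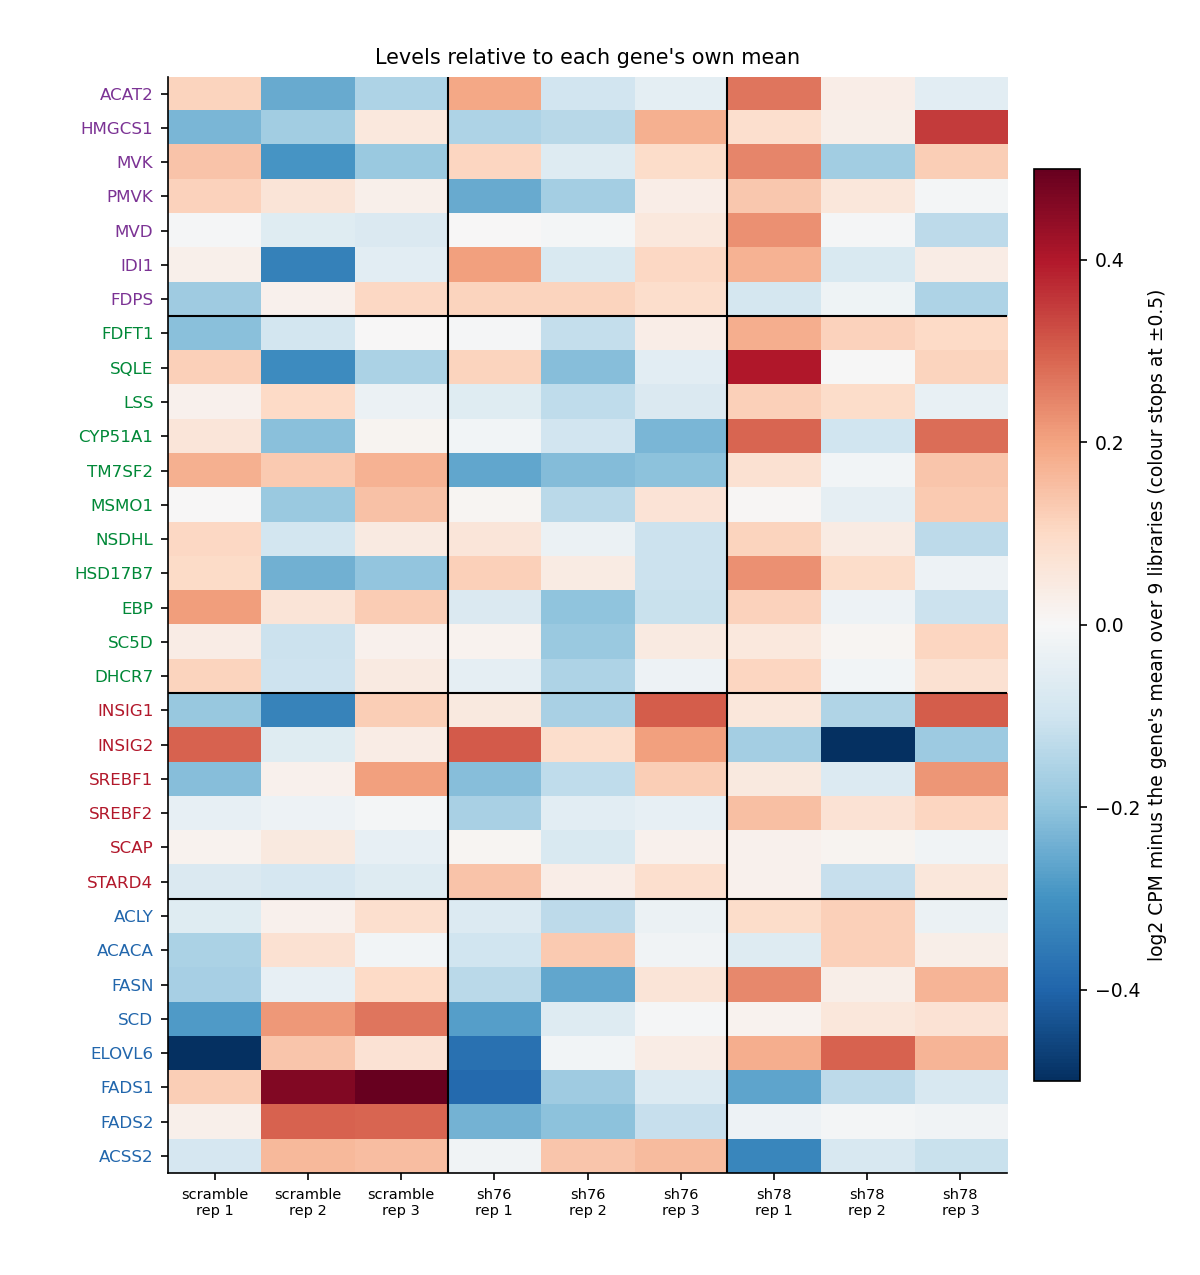
Log2 CPM minus each gene's mean over the 9 libraries, with genes in rows by role and libraries in columns, red above and blue below the gene's mean (colours stop at ±0.5). FADS1 is red in the scramble columns, and INSIG1 is lowest in replicate 2 of each group.

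The genes around the pathway were read from 5 further lists, and few of them were called without the block; of all genes, 3.58% were called either way for sh76 and 4.41% for sh78. With the block, which called 20.4% and 19.9% of all genes either way, 6 of 15 genes of SREBP processing and turnover passed for sh76 and 7 for sh78. Of 14 genes of the isoprenoid branches, 3 (PDSS2 and PGGT1B lower, FNTA higher) and 4 (FNTB, RABGGTB and ICMT lower, DHDDS higher) passed, and of 18 sterol export and LXR genes 6 and 6. The last include SCARB1, lower, and NR1H2, higher, each with both hairpins. Of 32 other lipid synthesis genes 9 and 11 passed, and of 19 oxidation genes 5 (CPT1A, ACADVL, HADH, ACAA2 and ECI1) and 4 (CPT1A, SLC25A20, ECI1 and PPARA), all lower. Genes listed here with the block alone were chosen after their values were seen. Of 15 genes of SREBP processing and turnover, edgeR called MBTPS1 lower with sh78 and 0 others (5 lower with sh76 at an unadjusted p under 0.05, DESeq2 0). MBTPS1, the site-1 protease that cuts SREBPs, had 170.4, 168.8 and 164.9 CPM with scramble, 148.5, 152.5 and 149.3 with sh76, and 141.0, 144.4 and 140.4 with sh78. All 6 hairpin libraries were below scramble, at a log2 fold change of -0.16 with sh76 (edgeR adjusted p = 0.125, with the block 0.00508) and -0.24 with sh78 (0.0199). The sh78 call was lost without scramble replicate 2, sh78 replicate 1 or sh78 replicate 3 (adjusted p up to 0.074). Of 14 genes of the isoprenoid, dolichol and ubiquinone branches, ICMT, the methyltransferase of prenylated proteins, was called lower with sh78 (-0.25, adjusted p = 0.0257), but not without scramble replicate 2 or 3 or sh78 replicate 1 or 3 (up to 0.0976) or with only the 2 groups fitted (0.0525). With sh76 edgeR called 0 of the 14 (2 at an unadjusted p under 0.05, DESeq2 0).

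Among 18 genes of sterol export, storage, uptake and LXR targets, ABCG1 was lower with both hairpins and ABCA1 higher with sh78. ABCG1, an exporter of sterols to lipoproteins, had 18.45, 12.32 and 14.58 CPM with scramble, 6.724, 6.978 and 6.967 with sh76, and 9.642, 6.671 and 10.52 with sh78. It fell by 54.3% with sh76 (edgeR adjusted p = 0.00343) and by 40.6% with sh78 (0.0292), and every hairpin library lay below scramble. The sh78 call of ABCG1 was lost without scramble replicate 1 or 3 or sh78 replicate 1 or 2 (adjusted p up to 0.111), with only the 2 groups fitted (0.0525) and with limma on log2(FPKM + 1) or log2(FPKM + 0.1) (0.0713 and 0.0786). ABCA1, the other main exporter, had 24.56, 25.29 and 27.56 CPM with scramble, 28.99, 24.91 and 31.11 with sh76, and 31.89, 35.01 and 47.16 with sh78. Its log2 fold change with sh78 was 0.56 (adjusted p = 0.0335), and with sh76 0.13 (0.674). The sh78 call of ABCA1 was lost without any 1 of the scramble libraries, sh78 replicate 2 or sh78 replicate 3 (up to 0.127), and with both limma fits (0.112 and 0.108). Without sh78 replicate 3 the log2 fold change was 0.37. CYP27A1, a sterol hydroxylase named after its values were seen, was called for sh78 against sh76 (1.56, adjusted p = 0.0315) from only 8 to 29 counts per library, and not without sh76 replicate 1, 2 or 3 or sh78 replicate 1 or 2 (up to 0.132).

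Of 32 other genes of fatty acid and lipid synthesis, edgeR called ACSL5 higher with sh76 and HACD2 lower with sh78. DESeq2 also called ACSL5 and SCD5 higher with sh78, and ELOVL7 higher for sh78 against sh76. SCD5 had a mean of 296 CPM with scramble, 333 with sh76 and 344 with sh78. ACSL5, an acyl-CoA synthetase, had 3.343, 3.521 and 3.387 CPM with scramble, 4.812, 6.542 and 6.490 with sh76, and 5.440, 4.814 and 6.366 with sh78. All hairpin libraries lay above scramble, with log2 fold changes of 0.80 (edgeR adjusted p = 0.0291) and 0.70 (0.0555, with the block 0.00316). The sh76 call of ACSL5 was lost without any 1 of the scramble libraries, sh76 replicate 2 or sh76 replicate 3 (up to 0.132), and with both limma fits (0.0611 and 0.0594). HACD2, a dehydratase of fatty acid elongation, gave -0.37 with sh78 (adjusted p = 0.00346), -0.10 with sh76 (0.464) and -0.28 for sh78 against sh76 (0.0244), this last lost without any 1 sh76 library, sh78 replicate 1 or sh78 replicate 3 (up to 0.111). Of 19 fatty acid oxidation genes, edgeR called ECI1 lower with both hairpins and CPT1A lower with sh78, and 0 higher (0 at an unadjusted p under 0.05, DESeq2 0). DESeq2 also called SLC25A20 lower with sh78. ECI1, a mitochondrial enoyl-CoA isomerase, had 246.0, 223.7 and 248.4 CPM with scramble, 187.7, 172.7 and 175.0 with sh76, and 189.1, 174.4 and 189.5 with sh78. It fell by 25.5% (adjusted p = 0.00264) and by 23% (0.00402). CPT1A, the gate of fatty acid entry into mitochondria, gave -0.43 with sh78 (adjusted p = 0.0254, lost without scramble replicate 2 or 3 or sh78 replicate 1 or 3, up to 0.105, and with both limma fits, 0.0685 and 0.0665) and -0.25 with sh76 (0.19, with the block 4.07e-05).

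**Figure D5:**
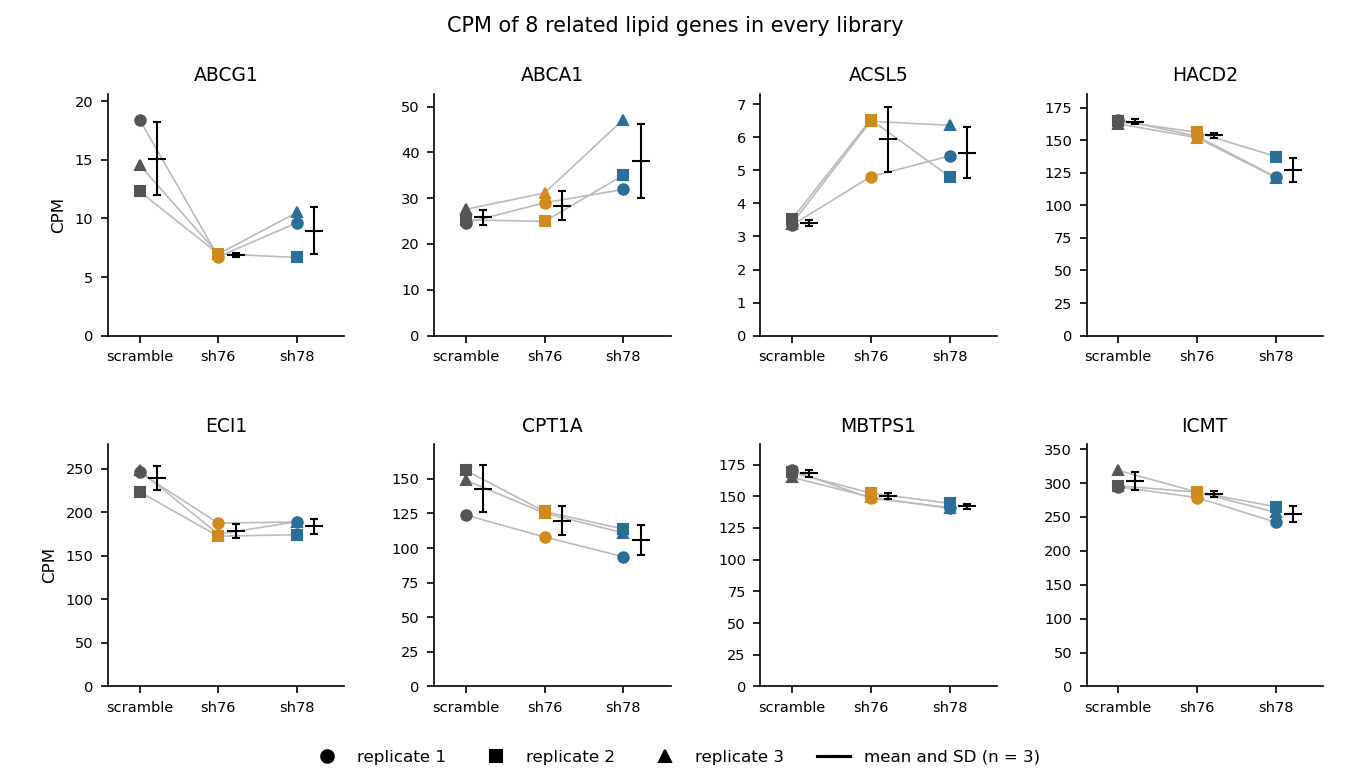
CPM of 8 genes from the further lists in each library (y axes from 0), with marker shapes for replicates 1 to 3, grey lines joining the same replicate number, and black bars for the mean and SD (n = 3). ABCG1 and ECI1 are lower in all 6 hairpin libraries than in scramble, and ACSL5 is higher.

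In these bulk libraries a smaller number of cells with a transcript and less of it per cell cannot be told apart. Of the 32 members, 14 share exonic bases with another gene that had counts, most of them on the opposite strand. The largest shares were in ACAT2, with 33.9% shared with SOD2-OT1 and 26.5% with SOD2 (at most 3 counts each) and 9.2% with TCP1 (2267 to 3367 counts). Since the libraries carry no strand, these counts do not show how many reads of ACAT2 the shared bases affected. The summed level of the ovarian carcinoma markers also moved with the groups, as given above, and its part in the falls of FADS1 and FADS2 was not tested.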

How the data were processed

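RNA of 9 OVCAR3 samples (3 scramble, 3 sh76, 3 sh78) was sequenced from poly-A selected, non-directional libraries, per the labels' protocols. The submitters' processing notes name HISAT2 2.0.5, featureCounts 1.5.0-p3 and the build hg38. The authors deposited raw counts per gene and FPKM values (fragments per kilobase of gene and library size). All 58735 identifiers were found in GENCODE release 29. Every per-sample column was used.

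The test on counts was that of edgeR 4.0.16 (R 4.3.3), with filterByExpr (minimum count 10, minimum total 15), TMM factors, robust quasi-likelihood fits over all 9 samples with 1 coefficient per group, and Benjamini-Hochberg adjustment over 17023 genes, with calls at an adjusted p under 0.05. The fit was also run on simulated counts drawn without a replicate effect. That run therefore cannot show how the fit with or without the block behaves when replicate numbers matter. Of 16 alternatives, DESeq2 1.42.0, limma 3.58.1 on log2(FPKM + 1) and log2(FPKM + 0.1), RLE factors, no low-count filter, the 2 groups alone and a replicate block were 7, and leaving out each library gave 9. Replicate numbers were taken to pair samples because deviations from the group means correlated at r = 0.142 to 0.391 in all 9 same-numbered pairs, against -0.31 to 0.0639 in 18 others. Replicates of a group differed beyond sampling noise (chi-square per degree of freedom 4.9 to 11.07). Depth was 14652965 to 21327562 counts per library.

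All members were named. Values in every sample were planned for members called in a comparison, or with the block in both hairpin groups with the same sign, and for GPX3. Named from each further list were up to 4 called genes with the largest mean change. Other members whose values are printed, FADS3, CYP27A1, SCD5, ELOVL7, SLC25A20 and the 12 genes plotted were chosen after their values were seen. The members and lists were chosen with earlier results of these data known. Promoter sequences are from RefSeq and were matched by symbol.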

Additional observations from a re-analysis of the deposited data

Results flagged for a closer look

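Among the genes named, 4 differed between the hairpins in the direct edgeR test of sh78 against sh76. TM7SF2 was higher with sh78 by 0.29 on the log2 scale (adjusted p = 0.0143), with all 3 sh78 libraries above all 3 sh76 libraries. GPX3 was lower with sh78, at -0.86 (adjusted p = 0.0194), and HACD2 at -0.28 (0.0244), each with no overlap between the hairpin groups. The GPX3 call was lost without any 1 sh76 library, sh78 replicate 2 or sh78 replicate 3 (adjusted p up to 0.0843), and the TM7SF2 call without sh76 replicate 1 or 2 or sh78 replicate 3 (up to 0.0667). CYP27A1 was higher with sh78, at 1.56 (adjusted p = 0.0315), from 8 to 10 counts per library with sh76 and 16 to 29 with sh78.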

How the results depend on the processing

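The counts of members called were 3 for sh76, 1 for sh78, 1 for sh78 against sh76 and 1 for both hairpins with the same sign, where 3.58%, 4.41%, 3.7% and 1.32% of all genes were called. Without the low-count filter the last 3 became 5, 3 and 2 (3.36%, 3.12% and 1.17% of all genes). Of the 5 called for sh78 without the filter, 3 were higher (HMGCS1, FDFT1 and SQLE) and 2 lower. With DESeq2 the count for sh78 against sh76 became 3 (5.06%). With the replicate block the 4 counts became 8, 11, 15 and 4 (20.4%, 19.9%, 18.3% and 8.29%). Leaving out 1 library at a time gave 2 to 4 for sh76 (1.37% to 3.77% of all genes). For sh78 it gave 0 without scramble replicate 2 (2.4% of all genes) and 2 without scramble replicate 1 (3.89%), and for both hairpins 0 (0.713%) and 2 (1.22%) without these. For sh78 against sh76 it gave 0 to 1, with 0 without sh76 replicate 1 (2.4%), sh76 replicate 2 (1.57%) or sh78 replicate 3 (2%). Where the count changed, the cause was not tested. The calls of TM7SF2 and FADS1 with sh76 held in all 16 alternatives, and those of FADS1 with sh78 and FADS2 with sh76 in 15. No called value changed sign. Among the members ELOVL6 and INSIG1 have the widest errors (SE up to 0.162 and 0.155).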
